A study of Mus musculus with 47 samples.

Results

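Vector cells of the mouse line JB6 were measured 24 h after 100 cGy of X-rays and compared with the same cells 24 h after sham treatment, called untreated here. The irradiated group and the untreated group hold 3 arrays each, chosen by their titles, which makes 6 of the 47 arrays of the series. JB6 cells come from mouse epidermis and are used to study how tumour promoters act, and the labels call them progenitor cells. Cells of both groups carried the empty Ps vector, delivered by retrovirus and selected with puromycin, in medium with 5% fetal bovine serum. They served as the control line for cells with an shRNA against AnxA2, the gene of annexin A2. Values are set beside those of vector cells at 24 h after 10 cGy (2 arrays), of vector cells at 2 and 6 h (3 arrays a group), and of AnxA2 shRNA cells at 24 h (3 arrays a group). The labels do not say whether a line is a clone or a pool, or whether replicates came from separate cultures. P values therefore measure the spread between these samples, which may be technical, and the number of arrays limits the precision.

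X-rays break DNA, and the kinase ATM then stabilises the transcription factor p53. p53 induces genes that halt the cell cycle (Cdkn1a), remove p53 (Mdm2) or start apoptosis (Bbc3). In many cell types a later phase follows in which mitotic genes are less active, and damaged cells can also activate interferon-stimulated and chemokine genes.

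The 6 arrays were alike in quality. Their medians lay between 5.76 and 5.77 (100 cGy) and between 5.76 and 5.78 (untreated) on the log2 scale, and the Gapdh signal of 3' minus 5' probe sets, a sign of RNA quality, was between -0.0025 and 0.013 after 100 cGy and between -0.090 and 0.016 in untreated cells. Elsewhere in the series, 3 vector arrays at 2 h (replicate 3 of each treatment) stood apart from their group mates. Their deviations from the group means had SDs of 0.263 (untreated), 0.256 (10 cGy) and 0.206 (100 cGy). In 2 shRNA arrays, replicate 2 at 2 h after 100 cGy and replicate 1 at 6 h after 10 cGy, the SDs were 0.234 and 0.229 and the Gapdh values 0.49 and 1.06. None of these 5 arrays belongs to a group at 24 h, but they enter the estimate of the spread that all groups share, so counts are given with them, without the 3 vector arrays, and without all 5, which are the arrays with an SD over 0.2. Both sets were chosen after seeing the data, for their wide deviations. Leaving them out changes no difference at 24 h and tends to lower the shared spread. Smaller p values in these fits are therefore built into the choice and are no independent support. Of 10 fibroblast and mesenchymal marker genes, 9 lay above the low-signal limit (log2 4.35) in both groups, among them Vim (12.98 after 100 cGy, 12.96 in untreated cells). Of 10 epithelial markers only Krt5, Krt8 and Itgb4 did, and the defining epithelial markers Cdh1 (2.35 and 2.29), Epcam (3.59 and 3.50), Krt14 and Krt18 lay under it. JB6 is an epidermal line, so these markers of its labelled origin were dim or under the limit in both groups. The leukocyte marker Ptprc (2.43 and 2.47) lay under it too, and 3 of 7 leukocyte markers above it. The summed linear signal of the 7 leukocyte markers was between 162 and 167 after 100 cGy and between 155 and 175 in untreated cells.

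At 24 h after 100 cGy, 6 genes rose and 2 fell. The higher ones were the chemokine gene Ccl5, the cell cycle inhibitor gene Cdkn1a, the enzyme genes Dglucy, Dcxr and Ak1 and the annexin gene Anxa8. The lower ones were Saa3, a serum amyloid A gene, and Ccn5, which encodes a secreted matricellular protein. All changes are log2 differences of 100 cGy minus untreated, with the standard error of a limma fit over all arrays, and a gene is said to have risen or fallen at a Benjamini-Hochberg adjusted p under 0.05 over 8675 tested genes. The calls are 0.0692% of the tested genes for higher, 0.0231% for lower and 0.0922% for both. The response was small: 3 of the 6 higher genes rose by 1.5-fold or more, and the median difference over all tested genes was 0.016. At an unadjusted p under 0.05 there were 288 genes (3.32%), of which 165 were higher (1.9%) and 123 lower (1.42%). If no gene responded, a share of about 0.05 of the genes would pass that threshold, more than this. Such counts over all tested genes, here and below, are therefore no sign of a wider response.

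**Figure D1:**
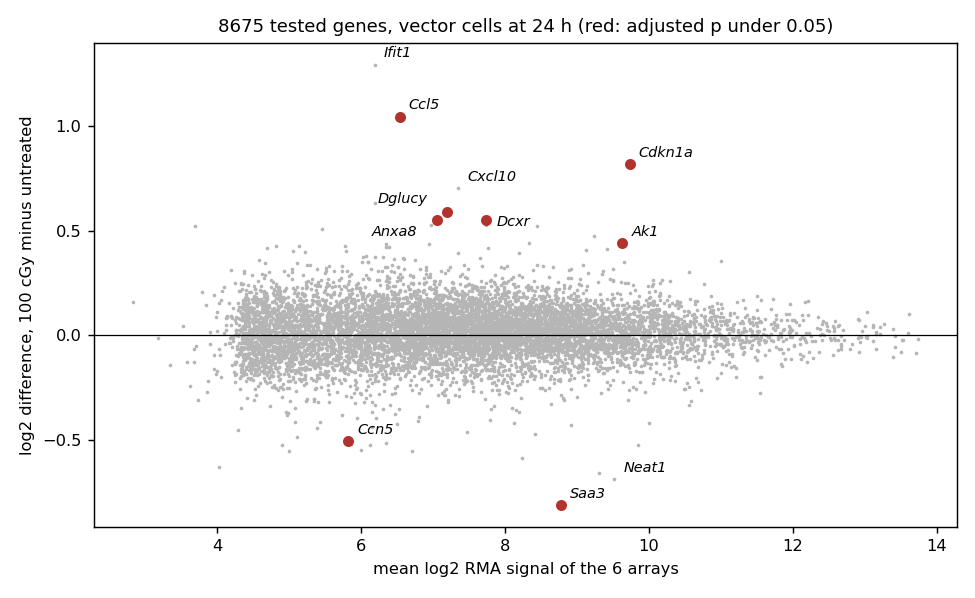
Log2 difference, 100 cGy minus untreated, against the mean log2 signal of the 6 arrays, for the 8675 tested genes of vector cells at 24 h. The 8 genes with an adjusted p under 0.05 are red; Ifit1 lies above all of them at 1.29 without being called.

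Cdkn1a (chromosome 17, 29090979 to 29100722, GRCm38.p6) encodes p21, the inhibitor of cyclin-dependent kinases that p53 induces. Its 3 arrays after 100 cGy had 10.02, 10.17 and 10.25, against 9.37, 9.44 and 9.17 in untreated cells, all log2 signals. Every irradiated array was above every untreated one, and the rise was 0.82 ± 0.11 or 1.76-fold (95% interval 1.51 to 2.07, adjusted p = 1.03e-04). In bulk RNA such a change cannot tell more RNA per cell from more cells that express the gene. A second, dimmer Cdkn1a probe set gave 0.67 ± 0.34, a value of the same sign with a wider error.

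The promoter of Cdkn1a is shown because the gene is the textbook target of p53 in irradiated cells. RefSeq lists 2 start sites for it in the table used here (GRCm38.p6), and the window of the upstream one, chr17:29090729-29091028 on the + strand, runs from 250 bases before to 50 bases after the start. Capitals mark matches to a p53 half-site of 10 bases, which is a part of the full p53 element, searched on both strands.
Cdkn1a promoter, upstream start: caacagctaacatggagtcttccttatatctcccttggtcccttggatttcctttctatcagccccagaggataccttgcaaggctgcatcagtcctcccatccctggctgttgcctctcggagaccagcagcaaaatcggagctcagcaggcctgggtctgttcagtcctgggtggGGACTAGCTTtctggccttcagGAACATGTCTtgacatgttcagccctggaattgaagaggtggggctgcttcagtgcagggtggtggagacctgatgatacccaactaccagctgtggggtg
It holds 2 matches to the half-site, beginning 73 and 51 bases before the start. Of 32851 promoters of that length, 8.36% hold at least 1 half-site. The window of the other start held none of these letters. A match of letters is no proof of binding, and none was measured here.

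Ccl5 (chromosome 11, 83525778 to 83530518, GRCm38.p6), a chemokine that draws T cells and monocytes, had 7.09, 6.84 and 7.26 after 100 cGy, against 6.08, 5.98 and 5.99 in untreated cells. The groups lay apart, with the untreated arrays close together, and Ccl5 rose 2.06-fold (1.05 ± 0.20, 95% interval 1.55 to 2.74-fold, adjusted p = 0.012). This was the largest fold among the called genes. The call was lost when any array other than 100 cGy replicate 2 was left out (adjusted p = 0.0529 to 0.187).

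The 3 enzyme genes rose by smaller amounts. Dglucy (chromosome 12, 100779057 to 100872610), a mitochondrial D-glutamate cyclase, had 7.45, 7.46 and 7.56 after 100 cGy, against 6.94, 6.96 and 6.79 in untreated cells, a rise of 0.59 ± 0.09 or 1.51-fold (adjusted p = 4.17e-04). Dcxr (chromosome 11, 120724546 to 120727284), a reductase of dicarbonyls and L-xylulose, had 7.98, 8.00 and 8.05, against 7.47, 7.46 and 7.45, and rose 1.46-fold (0.55 ± 0.10, adjusted p = 0.00427). The spread of Dcxr within each group was far under the gap between them, although the call was lost without 100 cGy replicate 3 (adjusted p = 0.0599). Ak1 (chromosome 2, 32621758 to 32635058), the cytosolic adenylate kinase, had 9.78, 9.92 and 9.85 after 100 cGy, against 9.41, 9.58 and 9.24 in untreated cells (0.44 ± 0.09, 1.36-fold, adjusted p = 0.0284). Its arrays did not overlap either, but the call was lost without any 1 of 5 arrays (all but untreated replicate 2; adjusted p = 0.0645 to 0.63). A second Ak1 probe set was too dim to measure a change (3.36 after 100 cGy, 3.37 in untreated cells).

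Anxa8 (chromosome 14, 34085979 to 34100571) encodes annexin A8, a calcium-dependent phospholipid-binding protein. It had 7.39, 7.24 and 7.36 after 100 cGy, against 7.06, 6.54 and 6.74 in untreated cells, with untreated replicate 1 nearest to the irradiated arrays. It rose 1.46-fold (0.55 ± 0.09, adjusted p = 0.00214), and a second probe set gave 0.57. Without untreated replicate 2 the difference was 0.43 and the call was lost (adjusted p = 0.0645). Anxa2 itself, the gene lowered in the other line, had 12.44, 12.34 and 12.36 after 100 cGy, against 12.47, 12.25 and 12.41 in untreated cells, a difference of 0.0016 ± 0.08 that was not called and whose groups overlap. Of 16 tested annexin and S100 genes 1 rose and none fell, with a median of 0.01.

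Saa3 (chromosome 7, 46711998 to 46719615), an acute-phase serum amyloid A gene expressed outside the liver, had 8.21, 8.41 and 8.5 after 100 cGy, against 9.13, 9.21 and 9.20 in untreated cells. It fell to 57.1% of the untreated level (-0.81 ± 0.14, adjusted p = 0.00295). The groups did not overlap, and the call was lost without 100 cGy replicate 1 (adjusted p = 0.0645). Ccn5 (chromosome 2, 163820752 to 163833146) had 5.63, 5.59 and 5.49, against 6.03, 5.92 and 6.27, and fell to 70.5% of the untreated level (-0.50 ± 0.11, adjusted p = 0.047). This value lies close to the threshold, and the call was lost without any 1 of 5 arrays (all but untreated replicate 2; adjusted p = 0.107 to 0.63).

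The promoter of Saa3 is shown because the gene fell in vector cells and, as given below, rose in shRNA cells after the same dose. Its window in RefSeq (GRCm38.p6), the only entry for the gene in the table used here, is chr7:46715627-46715926 on the - strand, written 5' to 3' along the gene. This window lies inside the gene span given above, and the outer end of that span was not searched. Capitals mark a match to a motif of the interferon response type, TTTC repeated after 2 free bases, which lies on the strand opposite to the one printed.
Saa3 promoter: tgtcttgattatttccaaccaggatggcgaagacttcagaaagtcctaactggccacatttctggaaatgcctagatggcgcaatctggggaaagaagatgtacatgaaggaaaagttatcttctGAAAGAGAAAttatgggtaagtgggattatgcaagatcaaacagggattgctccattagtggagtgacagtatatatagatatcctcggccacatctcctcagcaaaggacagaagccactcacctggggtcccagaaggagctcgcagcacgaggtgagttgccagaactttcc
The match begins 125 bases before the start, and 3.44% of the 32851 promoters hold 1 or more. An NF-kB type motif, GGGA, 1 free base and TTTCC, held by 0.411% of promoters, did not occur in the window on either strand. Neither did the cell cycle homology motif TTTGAA, the E-box CACGTG, the AP-1 motif TGANTCA or the cAMP response motif TGACGTCA. The CCAAT box, the E2F motif TTTCCCGC and the p53 half-site were absent from the window too.

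**Figure D2:**
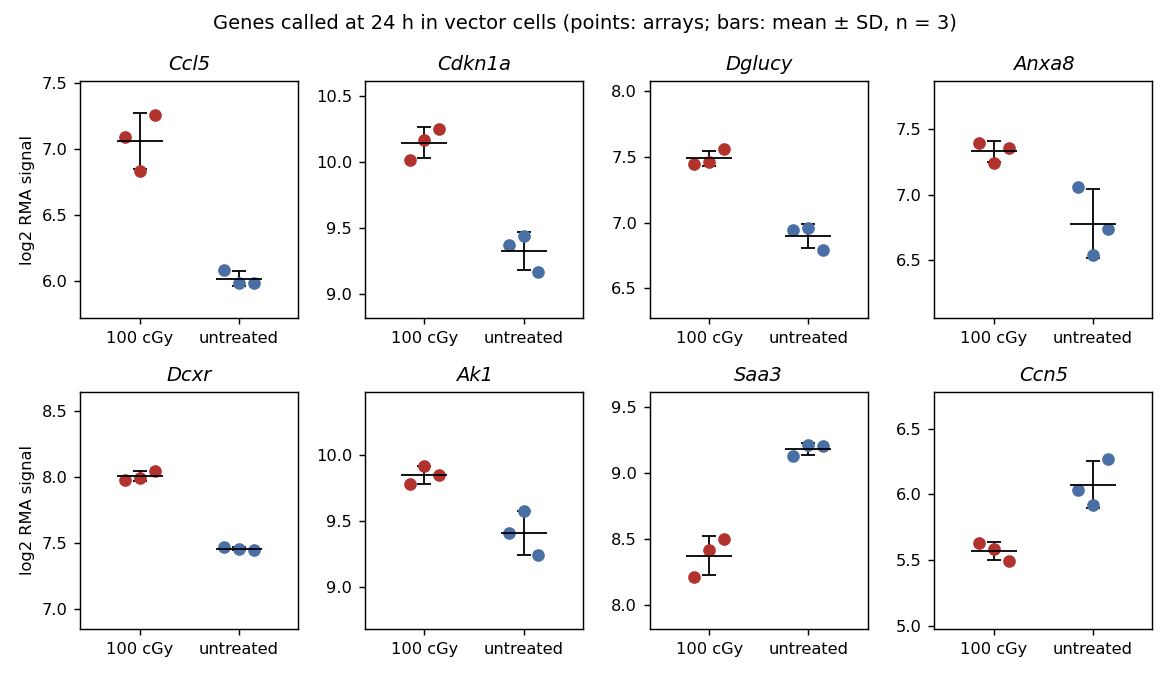
Log2 RMA signal of the 8 called genes on each of the 3 arrays after 100 cGy (red, left) and the 3 untreated arrays (blue, right), with mean and SD. Each panel spans the same height on the log2 scale, and in every panel the 2 groups lie apart.

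More genes were called in 3 other fits, and all 8 genes were among them in each. With the replicate number as a block, since same-numbered vector arrays at 24 h deviated together, 10 genes rose and 7 fell. Without the 3 vector arrays that stand apart 13 rose and 7 fell, and without all 5 arrays 15 rose and 9 fell, the same 20 among them. In the fits without arrays the differences are unchanged, and the added calls come with smaller standard errors. The block is fitted in every line and time. It therefore also takes up what same-numbered vector arrays at 2 h share (r = 0.63 for replicate 3, the arrays that stand apart). The 3 fits are not independent, and a call in all of them is no separate support. Genes added in all 3 fits were Ifit1, Fst, Pdrg1 and Phlda3 (higher) and Ccnl2, Pan2, Rsrp1 and Neat1 (lower). Fst, Pdrg1 and Rsrp1 were named after their values were seen.

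Among the added genes, Pdrg1, a gene named for its regulation by p53 and DNA damage, had 9.54, 9.5 and 9.39 after 100 cGy, against 9.0, 8.98 and 9.02 in untreated cells (0.47, limma adjusted p = 0.191, 5.64e-04 with the block and 8.28e-05 without the 3 arrays). Fst, which encodes the activin antagonist follistatin, had 7.89, 8.13 and 7.96, against 7.40, 7.63 and 7.38 (0.53). Neat1, the long non-coding RNA on which paraspeckles form, had 9.19, 9.15 and 9.19 after 100 cGy, against 9.94, 9.83 and 9.83 in untreated cells (-0.69 ± 0.19, limma adjusted p = 0.272, 0.0077 with the block and 2.23e-07 without the 3 arrays). The 3 irradiated Neat1 arrays lay within 0.05 of each other and well under the untreated ones, and the standard error was 0.07 without the 3 arrays that stand apart. Other genes of this kind were Ccnl2, the splicing-linked cyclin L2 (-0.36), Pan2, a subunit of a poly(A) nuclease (-0.52), and Rsrp1 (-0.52). Ptprm, a receptor tyrosine phosphatase (-0.40, adjusted p = 0.148), and the recombination gene Rad51c (-0.35, adjusted p = 0.256) were not called in any of these fits.

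Genes induced by p53 were mostly higher. Of 34 tested p53 targets 2 rose (Cdkn1a and Dcxr) and none fell, and 29 had a value above 0, against 56.1% of all tested genes. The list's median was 0.19, against 0.016 for all tested genes, and its mean log2 level was 7.5, 7.54 and 7.5 after 100 cGy, against 7.36, 7.29 and 7.33 in untreated cells. For 14 of the 34 all irradiated arrays lay above all untreated arrays, against 7.09% of all tested genes. The members with the next smallest p were Aen, a p53-induced nuclease of apoptosis (0.33 ± 0.08, adjusted p = 0.148), Phlda3, a repressor of Akt signalling (0.41 ± 0.10, adjusted p = 0.148), and Ephx1, the microsomal epoxide hydrolase (0.41, adjusted p = 0.191). Without the 3 vector arrays that stand apart Phlda3 (adjusted p = 0.0112) and Ephx1 (0.0467) were called, and without all 5 arrays Aen was too (0.0138). Phlda3 had 9.45, 9.28 and 9.27, against 8.96, 8.91 and 8.90.

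Ccng1, which encodes cyclin G1, had 11.16, 11.30 and 11.07 after 100 cGy, against 10.83, 10.89 and 10.75 (0.35 ± 0.11, adjusted p = 0.565), and its other probe sets gave 0.44 and 0.47. Mdm2, the ubiquitin ligase that removes p53, had 8.90, 8.97 and 8.98, against 8.70, 8.85 and 8.58 (0.24 ± 0.11, adjusted p = 1). Both groups of Mdm2 were close, without overlap. Bbc3, the pro-apoptotic PUMA gene (0.32), and Trp53inp1, a p53-induced gene of stress and autophagy (0.63), also had values above 0, while the damage-recognition gene Ddb2 was at -0.55. None of these 3 was called in the fit over all arrays, and Trp53inp1 was called without the 3 vector arrays that stand apart (adjusted p = 0.0295). Trp53inp1 and Ddb2 were named after their values were seen. Of 26 tested apoptosis genes limma called 0, with 11 above 0 and 2 at an unadjusted p under 0.05. The shares over all tested genes were 56.1% and 3.32%.

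Interferon-stimulated genes were mixed in size. Ifit1, which binds foreign RNA lacking a methylated cap, had 6.51, 6.94 and 7.06 after 100 cGy, against 5.58, 5.79 and 5.26 in untreated cells. The gap of 1.29 ± 0.31 (2.45-fold) was larger than that of Ccl5, but the adjusted p was 0.148, against 9.51e-06 with the block and 2.23e-07 without the 3 arrays that stand apart. Cxcl10, a chemokine induced by interferon, had 7.71, 7.66 and 7.73, against 6.90, 6.94 and 7.15 (0.70 ± 0.21, 1.63-fold, adjusted p = 0.625, and 0.00128 without all 5 arrays). Rsad2, which encodes the antiviral enzyme viperin, had the opposite sign, with 7.78, 8.16 and 7.89 after 100 cGy, against 8.46, 8.74 and 8.39 (-0.59, adjusted p = 1). Of 19 tested genes of the list limma called 0, while 5 higher and 1 lower had an unadjusted p under 0.05. Of all tested genes 1.9% were higher and 1.42% lower at that p. In the list a value above 0 was found for 15 and below 0 for 4, and the median was 0.14. The shares over all tested genes were 56.1% and 43.9%. Oas1a, Igtp and Rtp4 had values of 0.31, 0.40 and 0.38, and Igtp was at 0.20 without untreated replicate 3 and at 0.27 without 100 cGy replicate 2. Of 26 NF-kB inflammatory genes 1 rose (Ccl5) and 1 fell (Saa3), with a median of 0.05. The summed leukocyte markers, given above, overlapped between the groups. Of the 3 above the limit, Laptm5 (0.04) and Csf1r (5.34e-05) overlapped too. Cd3e lay lower without overlap, as did 5.27% of all tested genes. Its change was -0.12 ± 0.12 (means 5.46 after 100 cGy, 5.58 in untreated cells). The part of leukocytes in the Ccl5 and Cxcl10 values was not tested.

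Mitotic genes were mostly lower, by small amounts. Of 45 tested members limma called 0, while 1 higher and 12 lower had an unadjusted p under 0.05, against 1.9% and 1.42% of all tested genes. A value below 0 was found for 41, against 43.9% of all tested genes, and the median was -0.15. The list's mean log2 level was 8.89, 8.89 and 8.87 after 100 cGy, against 9.08, 9.0 and 9.04 in untreated cells. For 22 of the 45 all irradiated arrays lay under all untreated arrays, against 5.27% of all tested genes. Top2a, the topoisomerase that untangles chromosomes, had 10.37, 10.36 and 10.38, against 10.61, 10.62 and 10.65 (-0.26). Nusap1, a spindle protein, was at -0.37 and was called without all 5 arrays that deviate (adjusted p = 0.039). Values below 0 that were not called include the cytokinesis factor Ect2 at -0.42 and the mitotic kinases Plk1 and Aurkb at -0.25 and -0.28. An exception was Ccnb2, cyclin B2, at 0.27, with 9.25, 9.11 and 9.16 after 100 cGy, against 8.97, 8.75 and 9.0. DNA replication genes were split evenly, with 22 of 44 above and 22 below 0, a median of -0.0011, 0 called by limma and 1 at an unadjusted p under 0.05. Of these Ccne1, cyclin E1, had a value of 0.39. Of 29 DNA repair genes 13 were above 0, with 0 called by limma and 1 (lower) at an unadjusted p under 0.05. Of all tested genes 56.1% were above 0 and 3.32% had an unadjusted p under 0.05.

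Acute-phase and complement genes mostly had values below 0. Of 15 tested, 1 fell (Saa3), 14 had a value below 0, against 43.9% of all tested genes, and the list median was -0.14. The median was -0.079 without 100 cGy replicate 1 and -0.089 without untreated replicate 2. The mean log2 level of the list was 8.17, 8.24 and 8.23, against 8.40, 8.43 and 8.36. C1s1, a protease of the first complement component, had 8.49, 8.52 and 8.41 after 100 cGy, against 8.76, 8.91 and 8.73 (-0.33, adjusted p = 0.191), and Osmr, the receptor of oncostatin M, was at -0.24. The collagenase gene Mmp13 had 8.19, 8.35 and 8.03, against 8.73, 8.70 and 8.55 (-0.47, adjusted p = 0.302).

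Cholesterol synthesis genes were also mostly below 0, 20 of 24, against 43.9% of all tested genes, with a median of -0.07. Limma called 0, and 5, all lower, had an unadjusted p under 0.05 (1.42% of all tested genes). Without 1 array the median lay between -0.12 and -0.083, below the value over all arrays, and it moved by over 1.5 times without 100 cGy replicate 1 (-0.10) or 2 (-0.12) or untreated replicate 1 or 3 (-0.11 each), or with 50% of genes left out (-0.12). The list's mean log2 level was 8.21, 8.25 and 8.20, against 8.34, 8.33 and 8.33. Nsdhl (-0.30), Lss, lanosterol synthase (-0.26), and Idi1, isopentenyl diphosphate isomerase (-0.26), had the smallest p. The list was as low elsewhere at 24 h. In vector cells after 10 cGy 23 of 24 were below 0 (median -0.095), against 4026 of 8675 tested genes. In shRNA cells after 100 cGy 20 of 24 were below 0 (median -0.088), against 4749 of 8675. The direct difference between doses, 100 minus 10 cGy, had a median of -0.015. Of 34 extracellular matrix genes 29 were above 0 (median 0.08), against 56.1% of all tested genes. This list's mean log2 level overlapped between the groups, with 8.85, 8.91 and 8.84 after 100 cGy, against 8.79, 8.88 and 8.65. The collagen genes Col5a3 and Col4a2 were at 0.42 and 0.29. Col4a2 was at 0.12 without untreated replicate 3 and 0.46 without untreated replicate 2. Limma called 0 of the 34 genes, and 2 had an unadjusted p under 0.05. Of 22 NRF2 antioxidant genes 16 were above 0 (median 0.09), among them Ephx1 and the glutathione reductase gene Gsr (0.23), with the same 2 counts, 0 and 2. Of 34 oxidative phosphorylation genes 27 were above 0, with a median of 0.03. ATF4 and unfolded protein genes had a median of -0.05, with 12 of 35 above 0. Ccn5 was the 1 member called among 24 tested TGF-beta and CCN target genes. Of 29 immediate early genes 22 were above 0, with Klf2, a transcription factor, at 0.32. Beside these lists, 56.1% of all tested genes were above 0 and 3.32% had an unadjusted p under 0.05.

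A further 9 lists had medians between -0.01 and 0.07, against 0.016 for all tested genes, of which 56.1% were above 0. Of 32 growth factor and receptor genes 22 were above 0 (median 0.05), with the platelet-derived growth factor gene Pdgfc at 0.27. Of 39 actin and adhesion genes 23 were above 0 (median 0.04), with the lamin gene Lmna at 0.25 and the integrin genes Itgb5 and Itgav at 0.24 and 0.19, of which Itgb5 was at 0.16 without untreated replicate 3. Of 26 genes of the secreted, senescence-associated kind 18 were above 0 (median 0.07), and of 21 matrix proteases and inhibitors 14 (median 0.02). Heat shock (8 of 19), hypoxia and glycolysis (12 of 25), lysosome and autophagy (15 of 29), ribosomal protein (10 of 18) and clock genes (8 of 19) came closest to an even split. Limma called none of their members over all arrays, and 4 of the 9 lists had 1 or more members at an unadjusted p under 0.05. Cryab, a small heat shock protein gene of the heat shock list named after its values were seen, was at 0.53 and was called without the 3 vector arrays that stand apart (adjusted p = 0.0407). Of 14 epithelial and keratinocyte genes 10 were above 0 (median 0.09).

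**Figure D3:**
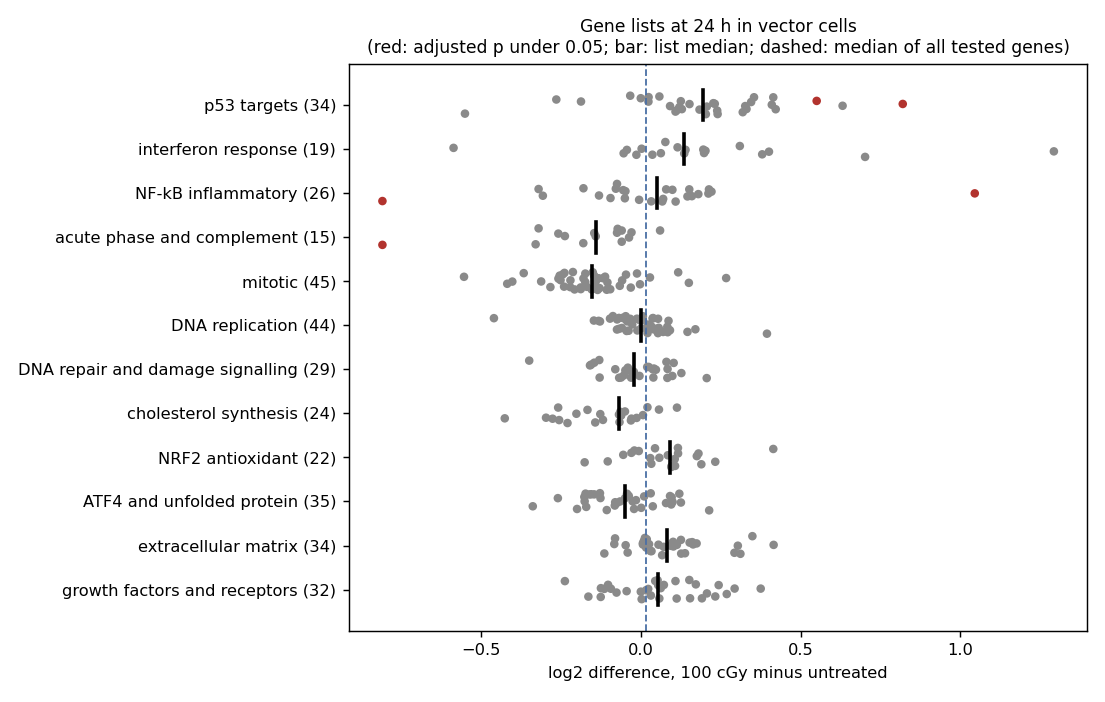
Log2 difference, 100 cGy minus untreated, of each tested member (points) of 12 gene lists, with the list median (bar) and the median of all tested genes (dashed). Red points are called genes; the p53 list lies mostly right of 0, with a median of 0.19, and the mitotic list mostly left of 0, with a median of -0.15.

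At the lower dose, 10 cGy, 1 gene was called at 24 h, Saa3 (0.0115% of tested genes). The values of both doses share the untreated arrays, so only the direct difference between doses, 100 minus 10 cGy with 3 against 2 arrays, compares them. That test called 0 genes (0% in either direction, smallest adjusted p 0.532), with 132 genes at an unadjusted p under 0.05. With the replicate block it called 3, without all 5 deviating arrays 7, and without the 3 vector arrays that stand apart 5: Ifit1 (adjusted p = 1.34e-06), Cxcl10 (0.0388), Ccl5 (0.0493) and Cdkn1a (0.0264) were higher after 100 than after 10 cGy, and Neat1 (5.32e-05) was lower.

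Group means of Cdkn1a were 9.33 in untreated cells, 9.63 after 10 cGy and 10.14 after 100 cGy, a stepwise order in which the doses differed by 0.52 ± 0.13. For Ccl5 they were 6.02, 6.30 and 7.06, with a difference between doses of 0.76 ± 0.23. For Ifit1 and Cxcl10 the 10 cGy means (5.45 and 6.72) lay under the untreated ones (5.54 and 7.0), and the differences between doses were 1.38 ± 0.35 and 0.98 ± 0.24. Saa3 had a different order, with 9.18 in untreated cells, 8.32 after 10 cGy and 8.37 after 100 cGy. Its fall after 10 cGy was -0.86 ± 0.16 (adjusted p = 0.0262), and the doses differed by 0.06, with a 95% interval from -0.26 to 0.37. Ccn5 (6.07, 5.60 and 5.57), C1s1 (8.80, 8.45 and 8.47) and Mmp13 (8.66, 8.17 and 8.19) were likewise close at both doses, with differences of -0.03, 0.03 and 0.02. The call on Saa3 after 10 cGy was lost without any 1 of the 5 arrays.

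Interferon response genes lay higher after 100 than after 10 cGy for 18 of 19 members, with a median of 0.29, and the mean log2 level was 6.51, 6.56 and 6.51 after 100 cGy, against 6.19 and 6.15 after 10 cGy. Untreated cells lay between the doses, with 6.37, 6.34 and 6.32. After 10 cGy 15 of the 19 genes were lower than in untreated cells (median -0.13), against 4026 of 8675 tested genes. Between the doses, 100 minus 10 cGy, 41 of 45 mitotic genes were lower (median -0.13), and 25 of 34 p53 targets were higher (median 0.14). Acute-phase genes had a median of -0.01 in the same test, with 6 of 15 above 0. Over all 8675 tested genes the median between the doses was 0.006, with 4559 above 0 and 4116 below.

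The response at 24 h was set against that at 2 h, when 4 genes (0.0461%), all higher, were called in vector cells: Cdkn1a, Mdm2, Phlda3 and Slc19a2 (the last named after its values were seen). The difference of the responses, 24 h minus 2 h, passed the test for 1 gene (0.0115%), Neat1, with 450 genes at an unadjusted p under 0.05. Neat1 was at -0.69 at 24 h and 0.83 ± 0.19 at 2 h, a difference of -1.51 ± 0.26 (adjusted p = 0.0115). It had 8.70, 8.76 and 9.11 at 2 h after 100 cGy, against 7.88, 7.81 and 8.40 in untreated cells at 2 h, so the irradiated arrays lay above the untreated ones at 2 h and under them at 24 h. Without the 3 arrays that stand apart the difference was -1.57 (adjusted p = 2.91e-11) and 8 genes passed, without all 5 deviating arrays 13 passed, and with the replicate block 5 passed. The call was lost without any of 4 arrays (24 h 100 cGy replicate 2, 24 h untreated replicate 1, 2 h 100 cGy replicate 3 or 2 h untreated replicate 2; adjusted p = 0.0508 to 0.0637).

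As a list, p53 targets had a median of 0.0064 in the difference between times, with none called. Of the 34, 19 were above 0, against 4731 of 8675 tested genes. Mitotic genes were mostly lower at 2 h already, 35 of 45, against 4404 of 8675 tested genes, with a median of -0.08. Their difference between times had a median of -0.05, with none called and 28 of 45 below 0, against 3944 of 8675 tested genes. Mdm2 had a value of 0.24 at 24 h and a rise of 0.88 ± 0.11 at 2 h, a difference of -0.64 ± 0.15 (adjusted p = 0.178). Leaving out arrays at 2 h changes the difference between times itself. Without the 3 arrays that stand apart that of Mdm2 was -0.79 (adjusted p = 5.76e-05). Cdkn1a rose at both times, by 0.82 ± 0.11 at 24 h and 0.61 ± 0.11 at 2 h, and the difference was 0.21 ± 0.16 with a 95% interval from -0.12 to 0.53. On the second, dimmer Cdkn1a probe set the time difference had the opposite sign, -0.46 (limma, unadjusted p = 0.345). Mean Cdkn1a levels on the probe set used were 9.33, 9.63 and 10.14 at 24 h (untreated, 10 and 100 cGy), against 10.42, 10.58 and 11.03 at 2 h. Phlda3 was at 0.41 at 24 h and 0.59 at 2 h, and Ccng1 at 0.35 and -0.0035. The time difference of Ccng1 was 0.36 on the probe set used, and -0.0012 and 0.17 on its other probe sets. Dglucy (0.59 at 24 h, 0.05 at 2 h, difference 0.54 ± 0.13, adjusted p = 0.178) and Ccl5 (1.05 at 24 h, 0.36 at 2 h, difference 0.68, adjusted p = 0.892) were not called in this test. Both passed without all 5 deviating arrays, with differences of 0.53 and 0.92 (adjusted p = 0.0463 and 0.0389). The untreated mean of Saa3 was 9.18 at 24 h and 6.17 at 2 h. No untreated cells at 6 h were analysed here, so 6 h is given as levels only: at 100 cGy Cdkn1a stood at 10.73, Mdm2 at 9.70, Saa3 at 5.79 and Neat1 at 7.92.

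**Figure D4:**
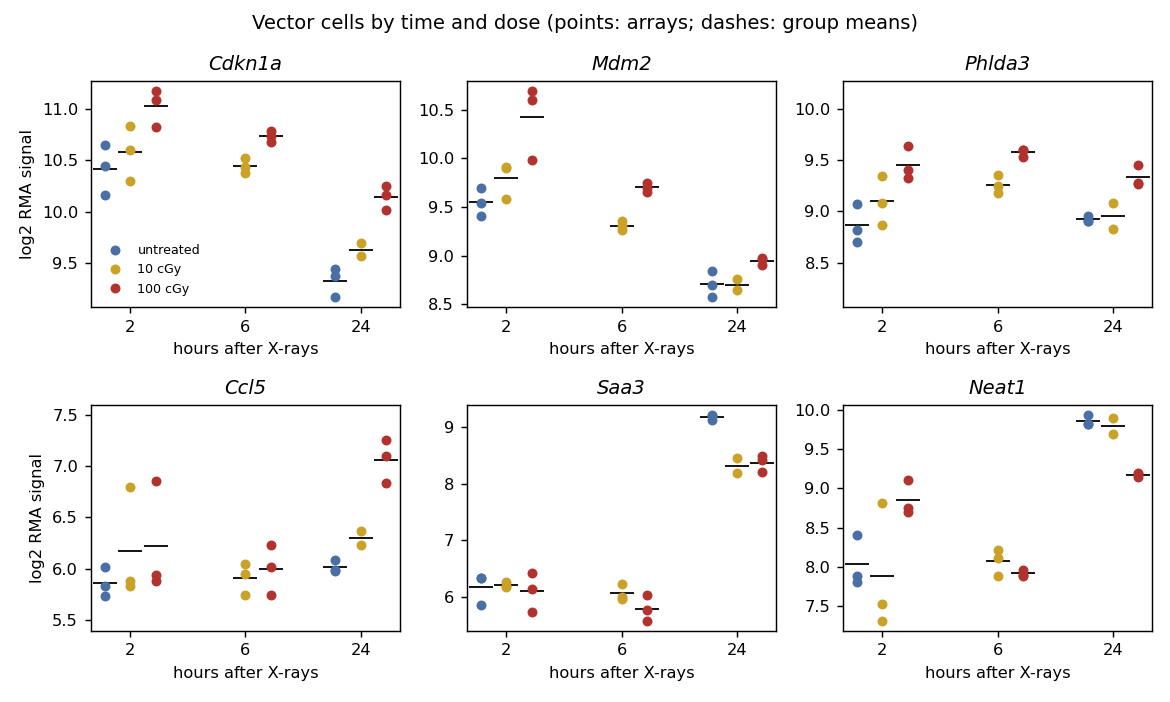
Log2 RMA signal of 6 genes in vector cells at 2, 6 and 24 h for untreated (blue), 10 cGy (yellow) and 100 cGy (red) cells; points are arrays and dashes group means, and the panels differ in scale. At 24 h the 100 cGy means of Cdkn1a, Phlda3 and Ccl5 (10.14, 9.33 and 7.06) lie above those of the other treatments, and Saa3 stands at 8.37, against 9.18 in untreated cells.

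Vector cells and AnxA2 shRNA cells were compared in their response to the same dose at the same time. Anxa2 itself lay between 12.34 and 12.44 in irradiated vector cells and between 10.69 and 10.78 in irradiated shRNA cells, which fits the labels. The difference of the responses, vector minus shRNA, passed the test for 7 genes (0.0807%), 1 of them higher (0.0115%) and 6 lower (0.0692%), with 386 genes at an unadjusted p under 0.05. With the replicate block 11 passed, without the 3 vector arrays that stand apart 13, and without all 5 deviating arrays 24, the same 7 among the last 2 counts. In shRNA cells alone 14 genes were called (0.161%), 12 higher and 2 lower.

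Saa3 differed most among these genes. In vector cells it fell (-0.81), and in shRNA cells it rose by 1.88 ± 0.14 with 7.94, 7.93 and 7.74 after 100 cGy, against 6.04, 5.83 and 6.09 in untreated shRNA cells. The difference was -2.69 ± 0.20 (adjusted p = 6.58e-12). The untreated levels of Saa3 also differed, 9.18 in vector and 5.99 in shRNA cells at 24 h, while the irradiated levels were 8.37 and 7.87. C1s1 (-1.30 ± 0.12, adjusted p = 2.00e-09) was at -0.33 in vector cells and rose by 0.97 in shRNA cells. Ccn5 (-1.08 ± 0.15, adjusted p = 5.64e-05) fell by 0.50 in vector cells and rose by 0.58 in shRNA cells.

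Lbp, the binding protein of bacterial lipopolysaccharide, differed by -0.97 ± 0.13 (-0.14 in vector cells, 0.82 in shRNA cells), and C1ra, the other protease of the first complement component, by -0.91 ± 0.15 (-0.18 and 0.73). Scara5, a scavenger receptor that takes up ferritin, differed by -1.27 ± 0.23 (-0.27 and 1.0), but its second probe set, near the low-signal limit, gave 0.01. For these 3 genes the value in vector cells was not called, with 95% intervals from -0.32 to 0.04 (Lbp), -0.39 to 0.03 (C1ra) and -0.60 to 0.06 (Scara5). The 3 irradiated C1ra arrays of vector cells lay under the untreated ones (8.28, 8.20 and 8.33, against 8.52, 8.48 and 8.35). Of 15 acute-phase and complement genes 4 were called in this test, all lower, with a median of -0.43 (0.03 over all tested genes). Cdkn1a was the 1 gene with the larger rise in vector cells, 0.82 beside 0.05 in shRNA cells, a difference of 0.77 ± 0.16 (adjusted p = 0.0303). Its shRNA arrays had 10.08, 9.95 and 10.06 after 100 cGy, against 9.98, 10.00 and 9.95 in untreated cells, so untreated shRNA cells already had levels near those of irradiated vector cells. The call on Cdkn1a was lost without any 1 of 9 of the 12 arrays (adjusted p = 0.0582 to 0.22). The second, dimmer Cdkn1a probe set gave a difference between lines of 0.42 (limma, unadjusted p = 0.392).

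Other genes of the vector response were not called in this test over all arrays. Ccl5 differed by 1.12 ± 0.29 (adjusted p = 0.234, but 0.00247 without the 3 arrays that stand apart), with 7.06 and 6.02 (100 cGy and untreated) in vector cells and 5.41 and 5.49 in shRNA cells. Dglucy differed by 0.48 ± 0.13 (adjusted p = 0.234, and 0.0303 without all 5 deviating arrays), with 0.59 in vector cells, against 0.11 in shRNA cells. Neat1 differed by -1.17 ± 0.26 (adjusted p = 0.0846 and 1.90e-09), with -0.69 in vector cells, against 0.48 in shRNA cells. Anxa8, Dcxr and Ak1 had values above 0 in both lines, 0.55, 0.55 and 0.44 in vector cells, against 0.26, 0.21 and 0.21 with the shRNA, and differed by 0.29, 0.34 and 0.23 (95% intervals 0.02 to 0.55, 0.06 to 0.62 and -0.03 to 0.49; adjusted p = 0.997 each). Mitotic genes were lower in the vector response for 37 of 45 members (median -0.15), against 3669 of 8675 tested genes. Their median in shRNA cells was -0.0046. p53 targets had a median of 0.19 in vector cells, against 0.07 in the shRNA line. In the difference 25 of 34 were higher, as were 5006 of 8675 tested genes.

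**Figure D5:**
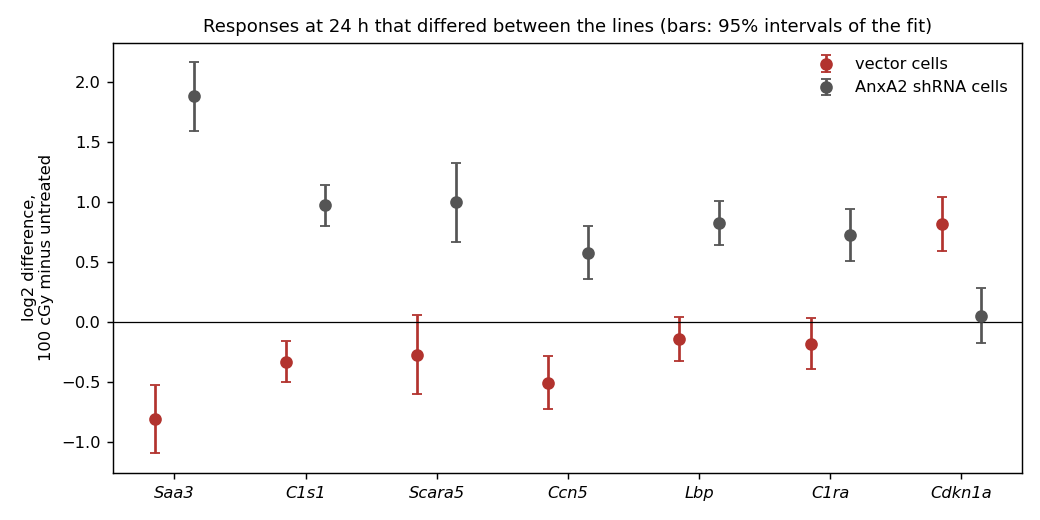
Log2 difference, 100 cGy minus untreated, at 24 h in vector cells (red, left of each pair) and AnxA2 shRNA cells (grey), with 95% intervals, for the 7 genes whose response differed between the lines. The 6 lower genes lie above 0 in shRNA cells and below 0 in vector cells, where the intervals of Scara5, Lbp and C1ra include 0; Cdkn1a has the opposite order.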

How the data were processed

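RNA of JB6 cells was labelled with biotin by the Affymetrix one-cycle protocol and measured on 1 array a sample, per the labels. RMA made the signals, according to the submitters' processing notes, which name no version. The values are log2 signals between 1.84 and 14.03, used as the authors deposited them.

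Groups follow the labels. Of 22690 probe sets, 64 controls were set aside, 20380 had 1 gene symbol (GEO's platform annotation), and only these were kept. Several symbols stood for 691, none for 1555. A gene is its probe set with the highest mean over the 47 arrays. The 30% of 12393 genes with the lowest mean (under log2 4.35) were left out, which leaves 8675. 1 limma fit (3.58.1, R 4.3.3) of 16 group means gave all contrasts, with 31 residual and 5.68 prior degrees of freedom, two-sided Benjamini-Hochberg adjusted p and a threshold of 0.05. The fit was tested on simulated data, with independent errors of equal spread on every array. That test therefore could not cover the arrays that stand apart or the shared deviations of same-numbered arrays. Same-numbered 100 cGy and untreated vector arrays at 24 h deviated together from their group means (r = 0.20, 0.27 and 0.15 across genes). Pairs with unlike numbers had r between -0.29 and 0.17. At 2 h the same-numbered vector arrays had 0.51, 0.34 and 0.63. In shRNA cells the values were 0.18, -0.06 and -0.09 at 24 h, and -0.17, -0.13 and 0.57 at 2 h. A fit blocked by number in every line and time is given beside the counts. For shRNA cells, and so for the difference between lines, these values give little ground for the block. The labels do not say what a number shares. Promoters and positions are from RefSeq (GRCm38.p6), and 8 of 13 genes looked for had a promoter entry. The alternatives were other filters, arrays, variance models, weights, scalings and probe set rules.

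Named genes are the called ones (at most 12 a direction, filled up to 8 by smallest p), up to 6 of smallest p a list, up to 5 a direction called in a difference test, and Cdkn1a, Mdm2, Ccng1, Phlda3 and Anxa2. The genes, lists and tests were chosen with earlier results of these data known, and exceptions are stated as chosen after their values were seen. Lists are described by counts and medians.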

Additional observations from a re-analysis of the deposited data

Results flagged for a closer look

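The response to 100 cGy at 24 h differed between vector and AnxA2 shRNA cells, by the test of the difference itself, for 7 genes. On the log2 scale, vector minus shRNA, the limma differences were -2.69 for Saa3 (adjusted p = 6.58e-12), -1.30 for C1s1 (2.00e-09), -1.27 for Scara5 (0.0038), -1.08 for Ccn5 (5.64e-05), -0.97 for Lbp (1.42e-05), -0.91 for C1ra (9.27e-04) and 0.77 for Cdkn1a (0.0303). In each of the 6 negative ones the shRNA response was a rise. Within vector cells, the response of Neat1 differed between times by -1.51 (24 h minus 2 h, limma adjusted p = 0.0115), with opposite signs at the 2 times.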

How the results depend on the processing

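The counts are those of limma at an adjusted p under 0.05. For 100 cGy against untreated in vector cells, 6 higher and 2 lower became 10 and 7 with the replicate block, 13 and 7 without the 3 vector arrays at 2 h that stand apart and 15 and 9 without the 5 arrays with deviations over 0.2 (both chosen after seeing the data), 53 and 61 with array weights (estimated gene by gene, since the REML estimate did not converge), and 2 and 0 with only vector arrays. Lower genes numbered 1 with no filter, with 50% of genes left out, with an intensity trend or with median-centred arrays, and 4 with the mean of all probe sets. Leaving out 1 array gave 3 to 5 higher and 0 to 2 lower genes.

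The difference between lines (7) became 11 with the block or with only the compared groups, 13 without the 3 arrays, 24 without the 5, 38 with weights, and 6 to 9 without 1 array. It has no fit with only vector arrays. The difference between doses (0) became 1 with no filter or only the compared groups, 3 with the block, 4 with weights, 5 without the 3 arrays and 7 without the 5, and stayed 0 without any 1 array. The difference between times (1) became 0 with only the compared groups or only vector arrays, 5 with the block, 73 with weights, 8 without the 3 arrays, 13 without the 5, and 0 to 2 without 1 array. The count after 10 cGy (1) became 0 with median centring, only the compared groups or only vector arrays, 2 with the mean of probe sets or without the 5 arrays, and 0 without any 1 array. For shRNA cells 14 became 24 with the block, 27 without the 3 arrays, 44 without the 5, 40 with weights, and 7 to 12 without 1 array. The 2 h count (4) became 2 with only vector arrays, 0 with only the compared groups, 21 with the block, 580 with weights, 14 without the 3 arrays, 16 without the 5, and 2 to 23 without 1 array.

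Of the 8 called genes, Dglucy kept its call in all 17 alternatives and Cdkn1a in all but the mean of probe sets (adjusted p = 0.236). Saa3 lost it with only vector arrays (0.102), Dcxr likewise (0.121), Anxa8 with only the compared groups (0.317) or vector arrays (0.0971), and Ccl5 with only vector arrays (0.192), beside the single arrays named above. Ak1 and Ccn5 lost theirs most often, and the 50% filter left Ccl5 and Ccn5 untested. No called gene changed sign. In the difference between lines, Scara5 and Cdkn1a lost their calls with the mean of probe sets (0.259 and 0.997). Anxa2, near 0, turned to -0.045 with weights, -0.086 with the mean of probe sets, -0.029 without 100 cGy replicate 1 and -0.061 without untreated replicate 2, and lay between -0.061 and 0.049 without 1 array. The causes were not tested, apart from fewer arrays in the fits that leave some out. The number of arrays limits what could be called.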
